A study of Mus musculus with 24 samples.

Results

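The genes described here are 10 genes by which pigment cells are recognised: Mitf, Sox10, Mc1r, Tyr, Tyrp1, Dct, Pmel, Mlana, Slc45a2 and Oca2. They were taken by name, as the probes whose transcript carries one of these symbols. All 10 were found among the 22911 gene symbols on the array.

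Melanocytes arise from the neural crest and make melanin inside melanosomes, lysosome-related organelles built on a fibrillar protein matrix. The transcription factor MITF, itself under the control of SOX10, drives many of the genes for the matrix, the melanin-forming enzymes and the transporters, and MC1R signalling raises MITF. Melanoma cells keep this programme to varying degrees, and cells that have lost it are described as dedifferentiated.

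RNA from mouse models of tumour dormancy in melanoma and in leukemia was measured on Agilent 1-colour arrays, with 8 arrays on each of 3 slides. B16-M is the parental B16-F1 melanoma line with GFP (3 arrays), and B16-D (4 arrays) is the line of dormant cells derived from it. B16-D-733 (4 arrays), B16-D-735 (3 arrays) and B16-D-739 (3 arrays) belong to a second generation of dormant cells, derived from a brain site, and which number is which of the brain-derived lines was not given in the sources used here. M0-p20 (4 arrays) and J365-p20 (3 arrays) are leukemia cells at passage 20, read from their names as the parental DA1-3b line and the line of dormant cells from the day given in its name. Dormant cells had been recovered from mice vaccinated with irradiated, cytokine-expressing tumour cells, and the melanoma lines were then grown in DMEM with 10% serum, so that each group is 1 cultured line and the line cannot be told apart from its history. The labels do not say that replicate arrays came from separate cultures. Captions of the study that cover the expression data state that each experiment was repeated, without saying whether from separate cultures. The p-values therefore measure the spread between arrays, which may be technical. The titles of B16-D replicates 1 to 3 and B16-D-733 replicates 1 to 3 carry the same date, and no other title carries one. What the date marks was not given in the sources used here, and a fit with it as a block was added after seeing the data.

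One array stood apart before any result. On B16-D replicate 2, 90.3% of the measuring spots were well above background by the scanner software, against 46.0% to 55.8% on the other 23 arrays. It was left out of the fits. Its values are given beside those of the line for Trpm1 and for the brightest probes of Mitf, Mc1r, Tyr, Pmel and Oca2. On this array Sox10 read 4.81, Tyrp1 7.61, Dct 8.42, Mlana 8.28 and Slc45a2 5.15, each below all melanoma arrays used. With this array added, none of the member counts below changed. The number of arrays, 3 or 4 in each line, limits the precision.

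Levels are log2 processed signal minus the log2 of the 75th percentile of the array, so that 0 is a signal at that percentile and 1 unit is a doubling. Each gene is given by its brightest probe, to which statements on overlapping arrays refer unless another probe is named, and the levels of different genes are not compared as amounts of RNA. Differences are log2 fold changes from limma with their standard error (SE), and a feature was called where the Benjamini-Hochberg adjusted p over all features tested was below 0.05. A feature was tested where its probe was well above background on at least 3 arrays of a fit.

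The parental lines were compared first, which sets the members against cells of another lineage and checks the labels. In B16-M against M0-p20, 10 of 10 members were higher and called, where 56.2% of all features tested were called. The median over all features tested was -0.19. Tyrp1, Mlana, Slc45a2 and Oca2 were not well above background on any leukemia array, nor was the brightest probe of Dct, so that these members passed the filter through the melanoma lines alone and had to differ. The direction was fixed by the choice of pigment genes for this contrast and is no sign of stability. In these bulk samples, fewer cells with a transcript and less RNA per cell cannot be told apart.

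Mitf encodes the master regulator of the melanocyte lineage. Its level was 6.02, 5.84 and 6.02 on the B16-M arrays, and 6.66, 5.97 and 5.86 on the B16-D arrays (5.47 on replicate 2). It was 6.24, 6.01, 6.14 and 6.09 in B16-D-733, 6.22, 5.91 and 6.18 in B16-D-735, and 6.09, 6.0 and 6.15 in B16-D-739. The leukemia lines gave 1.23, 0.73, 0.35 and 0.35 in M0-p20, and 2.63, 1.36 and 1.51 in J365-p20. The 5 melanoma lines overlapped, every melanoma array lay above every leukemia array, and the 3 J365-p20 arrays lay above the 4 M0-p20 arrays. The group means ran from 6.16 ± 0.43 (SD, n = 3) in B16-D to 5.96 ± 0.11 (n = 3) in B16-M, less than the spread within B16-D, then 1.83 ± 0.70 (n = 3) in J365-p20 and 0.66 ± 0.42 (n = 4) in M0-p20. Mitf was well above background on all leukemia arrays. B16-M exceeded M0-p20 by 5.30 (SE 0.26, 39.3-fold, limma adjusted p = 1.3e-12), in 3 of 3 arrays.

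Sox10 encodes a neural crest transcription factor that activates Mitf. It read 5.05, 5.26 and 5.16 in B16-M, and across all 16 melanoma arrays used it ran from 4.93 to 5.37. The leukemia arrays read -4.16, -4.16, -3.88 and -3.94 in M0-p20 and -4.66, -4.25 and -4.08 in J365-p20, well above background on each. The melanoma lines overlapped, with means from 5.28 ± 0.08 (SD, n = 3) in B16-D-739 to 5.06 ± 0.15 (n = 3) in B16-D-735. Sox10 was 585-fold higher in B16-M than in M0-p20 (log2 9.19, SE 0.13, limma adjusted p = 6.38e-21).

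Mc1r encodes the melanocortin 1 receptor, through which melanocyte-stimulating hormone raises cyclic AMP. It read 4.94, 4.71 and 5.27 in B16-M, 5.75, 4.92 and 5.07 in B16-D (4.65 on replicate 2), and 5.62, 5.25, 5.22 and 5.04 in B16-D-733. It read 5.32, 5.33 and 5.42 in B16-D-735, and 5.60, 5.06 and 5.24 in B16-D-739. The B16-D-735 arrays alone lay wholly above the B16-M arrays, by a narrow margin, and the other melanoma lines overlapped them. In the leukemia lines Mc1r was well above background throughout, at -0.05, 1.25, 1.01 and 0.96 in M0-p20 and -0.14, 1.01 and 0.78 in J365-p20. The leukemia lines overlapped each other, and B16-M exceeded M0-p20 by 18.1-fold (log2 4.18, SE 0.30, limma adjusted p = 4.01e-10).

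Tyr encodes tyrosinase, the rate-limiting enzyme of melanin synthesis. It read 3.40, 3.35 and 3.40 in B16-M, 3.53, 2.96 and 2.79 in B16-D (2.58 on replicate 2), and 2.79, 3.08, 3.21 and 2.98 in B16-D-733. It read 3.38, 3.21 and 3.20 in B16-D-735, and 2.95, 2.56 and 3.00 in B16-D-739. All B16-D-733 and B16-D-739 arrays lay below all B16-M arrays, whereas B16-D and B16-D-735 overlapped B16-M. The means ran from 3.39 ± 0.03 (SD, n = 3) in B16-M through 3.26 ± 0.10 (n = 3) in B16-D-735, 3.09 ± 0.39 (n = 3) in B16-D and 3.02 ± 0.18 (n = 4) in B16-D-733 to 2.84 ± 0.24 (n = 3) in B16-D-739, and neighbours in this order overlapped. On a second probe of Tyr, B16-M with -0.23, -0.13 and -0.34 and B16-D-735 with -0.15, -0.45 and -0.47 overlapped. On that probe the arrays of B16-D, -0.73, -1.18 and -1.54, of B16-D-733, -0.98, -1.19, -1.28 and -1.22, and of B16-D-739, -0.89, -1.11 and -1.37, all lay below both of those lines. Tyr was well above background in leukemia on its brighter probe only, at -3.78, -3.70, -3.39 and -3.41 in M0-p20 and -3.04, -3.07 and -3.73 in J365-p20. B16-M was 124-fold higher than M0-p20 (log2 6.95, SE 0.19, limma adjusted p = 1.06e-16).

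Tyrp1 and Dct encode tyrosinase-related enzymes that act after tyrosinase on the way to eumelanin. Tyrp1 ran from 7.66 to 8.10 over the 16 melanoma arrays, and the 5 lines overlapped, with means from 7.97 ± 0.11 (SD, n = 4) in B16-D-733 to 7.87 ± 0.15 (n = 3) in B16-D. Dct ran from 8.53 to 8.92, also with all lines overlapping, and its means ran from 8.82 ± 0.03 (n = 4) in B16-D-733 to 8.66 ± 0.13 (n = 3) in B16-M. A feature with no array of a line well above background passed the filter through other lines alone, so that its call is a description. In that case only a bound can be given. It is the bright line's mean against the mean of, per array, the higher of the lowest signal well above background and the dim probe's own. Bounds and folds depend on the scaling. With normexp, another background correction, M0-p20 means were -3.14 to -3.02 for Tyrp1, Dct, Mlana, Slc45a2 and Oca2, against -6.90 to -6.71 here. Their differences from B16-M were then smaller than the bounds given here and below. Sox10 and Tyr, at -2.53 and -2.34 in M0-p20, also differed less there. Tyrp1 was at least 6194-fold higher in B16-M than in M0-p20 (limma adjusted p = 1.95e-23). For Dct the brightest probe gave at least 10254-fold (adjusted p = 2.02e-24), but its other probe was well above background in leukemia, at -1.98, -3.93, -2.27 and -2.40 in M0-p20, and differed by 8.74, so that the larger bound holds for the brightest probe alone.

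Pmel encodes the protein that forms the fibrils of the melanosome matrix. It read 8.51, 8.36 and 8.54 in B16-M, 8.52, 8.13 and 8.09 in B16-D (7.65 on replicate 2), and 8.08, 8.26, 8.33 and 8.24 in B16-D-733. It read 8.62, 8.39 and 8.52 in B16-D-735, and 8.23, 8.14 and 8.34 in B16-D-739. The pattern over the lines was that of Tyr: B16-D-733 and B16-D-739 lay wholly below B16-M, and B16-D-735 and B16-D overlapped it. The means were 8.51 ± 0.12 (SD, n = 3) in B16-D-735 and 8.47 ± 0.10 (n = 3) in B16-M, which did not differ beyond their spread, and then 8.25 ± 0.24 (n = 3) in B16-D, 8.24 ± 0.10 (n = 3) in B16-D-739 and 8.23 ± 0.11 (n = 4) in B16-D-733, which overlapped each other. In leukemia Pmel was well above background on 2 of 4 M0-p20 arrays and 1 of 3 J365-p20 arrays. It was higher in B16-M than in M0-p20 (limma adjusted p = 2.48e-19), and for this reason no size is given.

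Mlana encodes MART-1, a melanosome protein that associates with the PMEL protein. It ran from 8.56 to 8.89 over the 16 melanoma arrays, with means from 8.76 ± 0.09 (SD, n = 3) in B16-D to 8.69 ± 0.08 (n = 3) in B16-M. The 5 lines overlapped. Mlana was at least 10450-fold higher in B16-M than in M0-p20 (limma adjusted p = 2.32e-21).

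Slc45a2 and Oca2 encode melanosome membrane transporters that keep the organelle at the pH that tyrosinase needs. Slc45a2 read 6.07, 5.48 and 5.18 in B16-M and ran from 5.18 to 6.07 over the 16 melanoma arrays, so that B16-M alone spanned the range of all lines. It was at least 1211-fold higher in B16-M than in M0-p20 (limma adjusted p = 8.64e-20). Oca2 read 2.31, 1.63 and 1.70 in B16-M, 2.69, 0.91 and 0.97 in B16-D (0.59 on replicate 2), and 1.26, 1.30, 1.31 and 1.15 in B16-D-733. It read 1.47, 0.58 and 0.65 in B16-D-735, and 1.78, 0.99 and 0.99 in B16-D-739. B16-D-733 and B16-D-735 lay wholly below B16-M, and B16-D and B16-D-739 overlapped it. On the second probe of Oca2, which read 0.84 to 1.37 in B16-M, B16-D-735 with -0.37 to 0.66 and B16-D-739 with 0.04 to 0.76 lay wholly below it, and B16-D-733 with 0.31 to 0.92 overlapped it. In B16-M, B16-D, B16-D-735 and B16-D-739 the array named replicate 0 was the highest of its line for both Oca2 and Slc45a2. The Oca2 means ran from 1.88 ± 0.37 (SD, n = 3) in B16-M through 1.52 ± 1.01 (n = 3) in B16-D, 1.26 ± 0.07 (n = 4) in B16-D-733 and 1.25 ± 0.46 (n = 3) in B16-D-739 to 0.90 ± 0.49 (n = 3) in B16-D-735, and neighbours overlapped. It was at least 93.4-fold higher in B16-M than in M0-p20 (limma adjusted p = 3.26e-14).

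**Figure D1:**
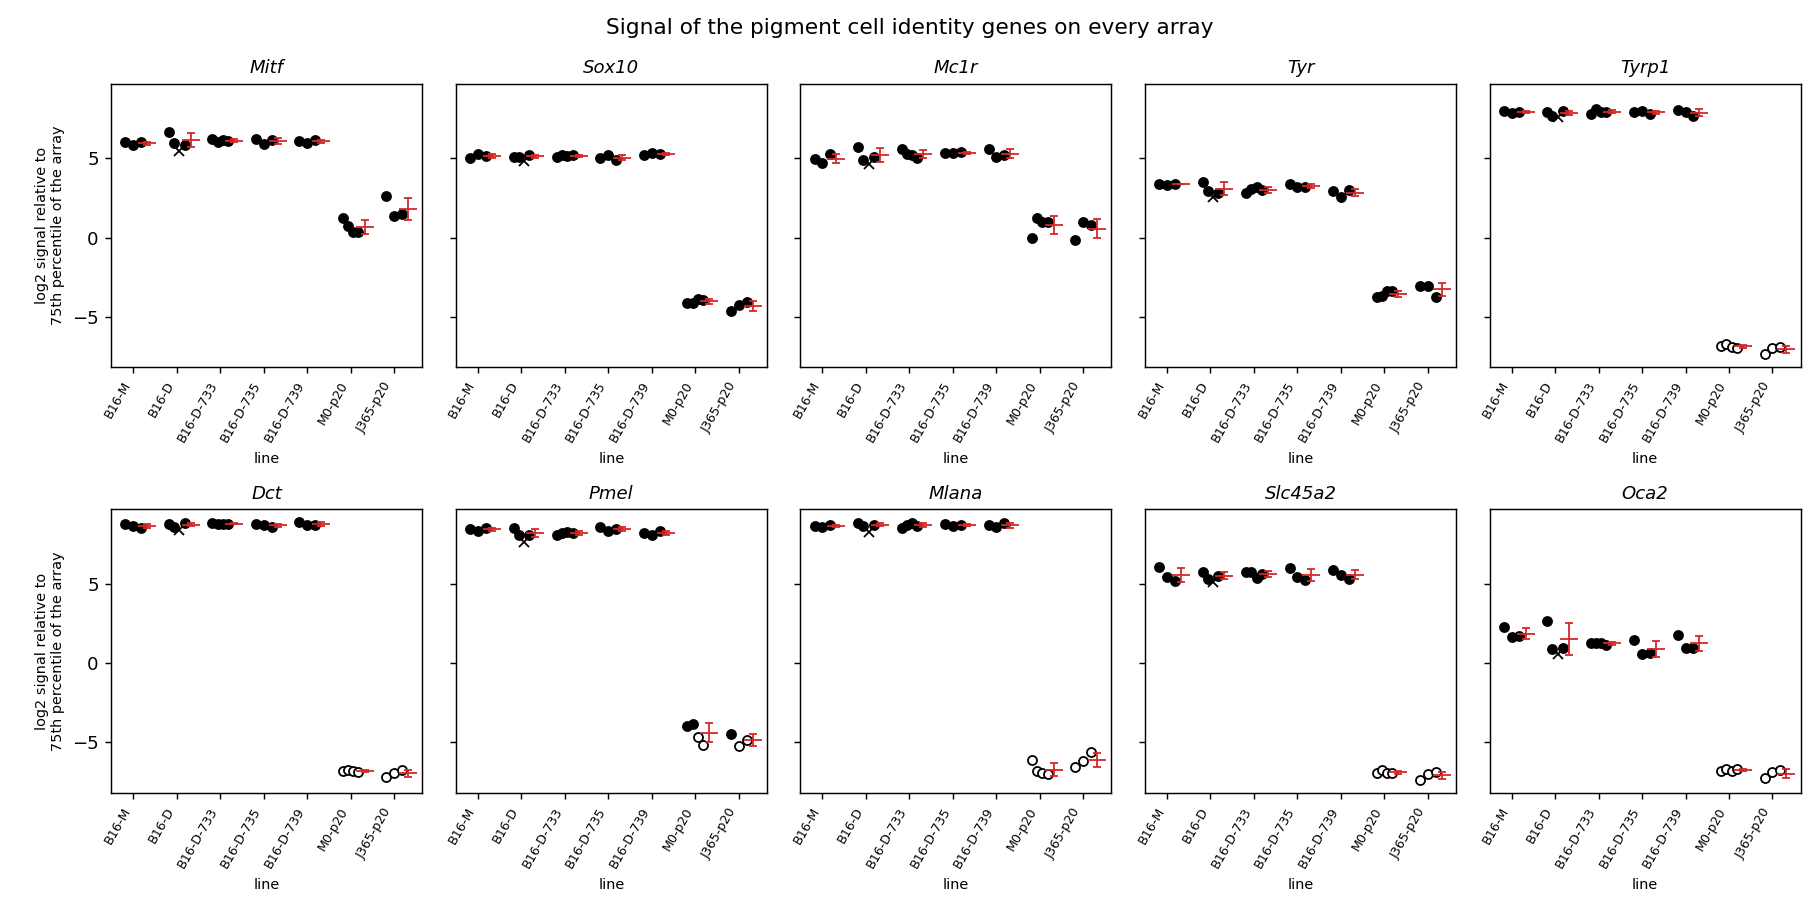
Level of each of the 10 members on every array, as log2 signal relative to the array's 75th percentile, by line; filled points are well above background, open circles are not, crosses mark B16-D replicate 2, and red marks the mean and SD without it. For every member the melanoma arrays lie above the leukemia arrays, and Mitf reads 2.63, 1.36 and 1.51 in J365-p20 against 0.35 to 1.23 in M0-p20.

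The next comparison asked how the line of dormant melanoma cells differed from its parent. In B16-D against B16-M, 0 of 10 members were called by limma, 0 had an unadjusted p below 0.05, and 3.64% of all features were called. Of the members, 4 had a positive and 6 a negative difference, and their median was -0.03 against -0.04 over all features. Tyr differed by -0.29 (SE 0.18, limma adjusted p = 0.478), by -0.92 on its second probe and by -0.60 with its probes averaged (adjusted p = 0.0617). Pmel differed by -0.22 (SE 0.13, adjusted p = 0.436) and Oca2 by -0.36 (SE 0.42, adjusted p = 0.730; 0.19 and 0.819 with the title date as a block). On the brightest probes no member had arrays of B16-D wholly apart from those of B16-M. On their second probes Tyr lay wholly lower in B16-D, and Dct wholly higher (6.14 to 6.65 against 6.08 to 6.11). On both slides that held the pair, Tyr and Pmel were lower in B16-D, by -0.61 to -0.15 and -0.42 to -0.21. The 1 B16-D array without a title date, however, exceeded the B16-M mean by 0.15 for Tyr and 0.06 for Pmel, and with the title date as a block the differences were -0.19 (adjusted p = 0.645) and -0.16 (adjusted p = 0.580).

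In B16-D-733 against B16-M, 0 of 10 members were called by limma and 0 had an unadjusted p below 0.05, where 5.59% of features were called. The arrays of Tyr, Pmel and Oca2 did not overlap between these lines, and the share of all features that lay apart is not given. With so few arrays in a line, those of an unchanged feature can also lie apart by chance. Without that share, arrays that lie apart are a description and no evidence of a change in these members. The same holds for the other comparisons between melanoma lines. Tyr differed by -0.37 (SE 0.17, adjusted p = 0.286; -0.36 and 0.190 with slide as a block), and within slides by -0.56 to -0.19, below 0 on 3 of 3 slides. Pmel differed by -0.24 (SE 0.12, adjusted p = 0.338; -0.23 and 0.216 with slide as a block), within slides by -0.28 to -0.21, and Oca2 by -0.62 (SE 0.39, adjusted p = 0.491), within slides by -1.08 to -0.38. With the title date as a block the differences were -0.26 for Tyr, -0.17 for Pmel and -0.0044 for Oca2. When the 2 probes of Tyr were averaged, its difference was -0.65 and passed (limma adjusted p = 0.0241, range over all alternatives 0.0241 to 0.601). The median of the members was 0.04 against 0.03 over all features, with 7 positive and 3 negative.

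In B16-D-739 against B16-M, 0 of 10 members were called by limma, where 3.71% of features were called. At an unadjusted limma p below 0.05 there was 1 member, Tyr, beside 3406 of all 24316 features tested. Of the members only Tyr and Pmel had arrays that did not overlap, which is a description, since the share over all features is not given. Oca2 overlapped on its brightest probe but was lower on each of 3 slides, by -0.71 to -0.52, where each slide holds 1 array of either line with the same replicate number. Its difference was -0.63 (adjusted p = 0.620; 0.274 with the replicate number as a block). Tyr differed by -0.55 (SE 0.18, 95% interval -0.94 to -0.15, 0.685-fold, adjusted p = 0.150; 0.0896 with slide as a block), and on each of 3 slides by -0.79 to -0.40. Pmel differed by -0.23 (SE 0.13, adjusted p = 0.483; 0.290 with slide as a block), on each of 3 slides by -0.28 to -0.20. Tyr passed in 2 alternatives: at -0.72 with its probes averaged (limma adjusted p = 0.0268) and at -0.61 after quantile normalization (adjusted p = 0.0492), within a range of 0.0268 to 0.429. The median of the members was 0.04 against 0.00 over all features, with 6 positive and 4 negative.

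In B16-D-735 against B16-M, 0 of 10 members were called by limma, where 5.06% of features were called. At an unadjusted limma p below 0.05 there was 1 member, Oca2, beside 3971 of 24316 features. Mc1r and Oca2 were the members whose arrays lay apart, which is a description, since the share over all features is not given. Oca2 differed by -0.98 (SE 0.42, 95% interval -1.89 to -0.08, adjusted p = 0.251; 0.212 with slide as a block), and by -1.73 to -0.17 within slides. Mc1r differed by 0.39 (SE 0.23, adjusted p = 0.472) and within slides by 0.15 to 0.61. For Tyr the difference was -0.12 (SE 0.18, adjusted p = 0.908), and -0.12 on its second probe too. The median of the members was 0.03 against -0.01 over all features, with 6 positive and 4 negative. These comparisons share the B16-M arrays.

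**Figure D2:**
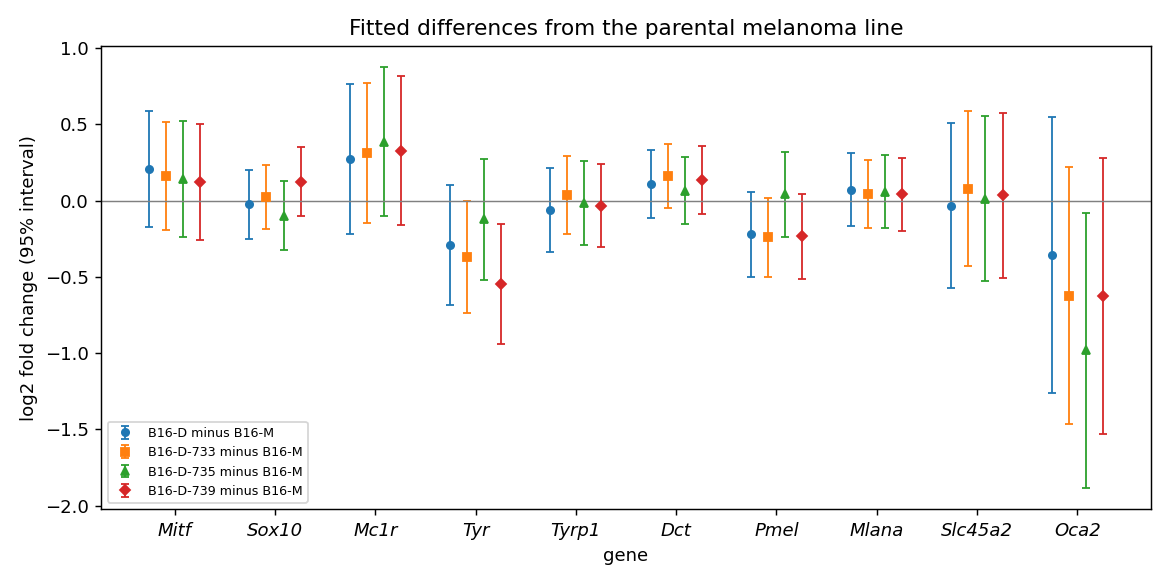
Log2 fold change of each member in the 4 other melanoma lines against B16-M, with 95% intervals from limma. Tyr in B16-D-739 (-0.94 to -0.15) and Oca2 in B16-D-735 (-1.89 to -0.08) are the 2 whose interval does not reach 0, and neither passed after adjustment.

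The second-generation lines were also set against B16-D, whose arrays these comparisons share as control, and against each other. In B16-D-733 against B16-D, 0 of 10 members were called by limma (0 at an unadjusted p below 0.05), where 0.477% of features were called. In B16-D-739 against B16-D the members called were again 0 of 10 (0 unadjusted), where 0.317% were called. In B16-D-735 against B16-D it was 0 of 10 (0 unadjusted), where 8.04% were called. The medians of the members were 0.01, 0.01 and 0.02, against 0.02, 0.01 and 0.04 over all features. Pmel was 0.26 higher in B16-D-735 than in B16-D (SE 0.13, adjusted p = 0.290), and by 0.19 to 0.29 on the 2 slides with both. Among the arrays without a title date, 3 of B16-D-735 and 1 of B16-D, the lines differed by -0.01 for Pmel and -0.27 for Tyr, and with the title date as a block by 0.20 (adjusted p = 0.541) and 0.07 (adjusted p = 0.892). Without B16-D replicate 0 the Pmel difference became 0.40 with limma adjusted p = 0.0489, within a range over the alternatives of 0.0489 to 0.655. Tyr differed by 0.17 over all arrays used (adjusted p = 0.737), by 0.79 on its second probe, whose arrays did not overlap, and by 0.48 with its probes averaged (adjusted p = 0.0989).

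B16-D-735 was then set against the mean of B16-D-733 and B16-D-739. Here 0 of 10 members were called by limma, where 10.9% of features were called. At an unadjusted limma p below 0.05 there was 1 member, Pmel, beside 5519 of 24316 features. The share of all features with arrays apart is not given, so that arrays apart are a description here too. Among the members only Pmel had arrays apart, with 8.39 as the lowest B16-D-735 array and 8.34 as the highest of the other lines. It differed by 0.28 (SE 0.11, 95% interval 0.04 to 0.51, adjusted p = 0.136; 0.0798 with slide as a block), and by 0.15 to 0.51 on 3 slides. Tyr differed by 0.33 (SE 0.15, adjusted p = 0.220; 0.147 with slide as a block), and by 0.79 on its second probe, on which the arrays did not overlap either. After quantile normalization Pmel passed at 0.39 (limma adjusted p = 0.0188, range 0.0188 to 0.365), and with probes averaged Tyr passed at 0.56 (adjusted p = 0.0194, range 0.0194 to 0.443). The median of the members was -0.01 against -0.02 over all features.

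**Figure D3:**
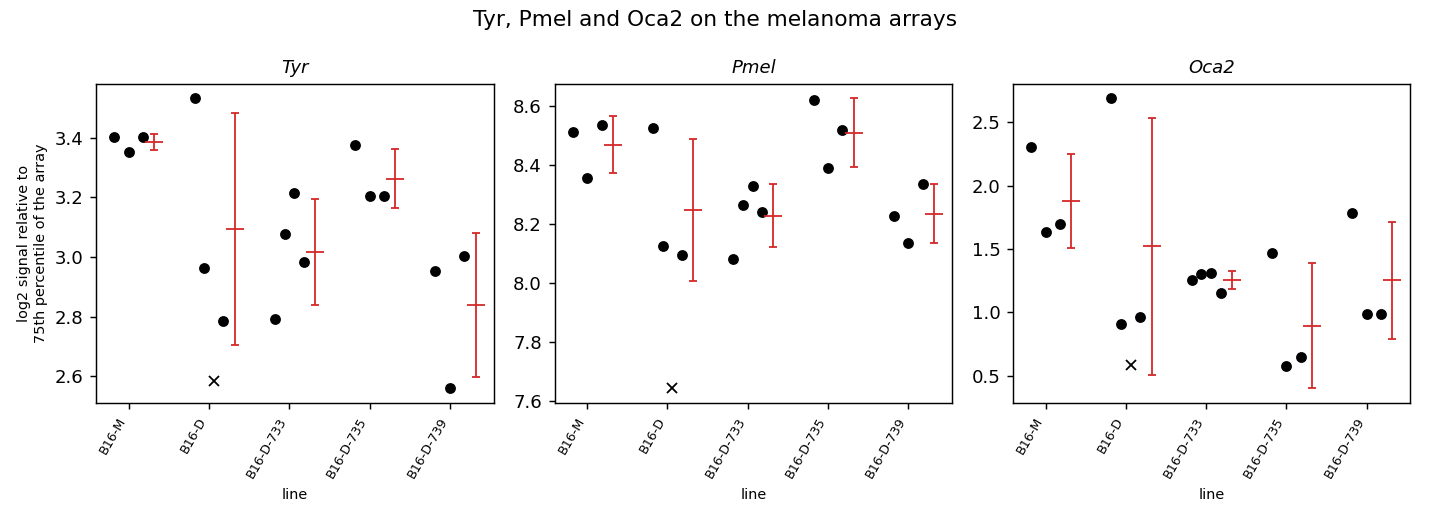
Level of Tyr, Pmel and Oca2 on each melanoma array, as log2 signal relative to the array's 75th percentile, by line; crosses mark B16-D replicate 2, and red marks the mean and SD without it. Tyr in B16-D-733 and B16-D-739 lies at 2.56 to 3.21, below the B16-M arrays at 3.35 to 3.40.

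In the leukemia model, the line of dormant cells was compared with its parent. In J365-p20 against M0-p20, 6 members had a probe that could be tested and 0 were called by limma, where 1.08% of features were called. An unadjusted limma p below 0.05 was found for 1 member, Mitf, and for 1597 of 23036 features. The share of all features whose arrays lay apart is not given, so that arrays apart are no evidence of a change here either. Of the members, Mitf alone had arrays that did not overlap on the brightest probe. It differed by 1.17 (SE 0.37, 95% interval 0.32 to 2.02, 2.25-fold, adjusted p = 0.436; 1.27 and 0.274 with slide as a block), and by 0.78 to 1.84 on the 3 slides. Its 2 other probes differed by 0.69 and 0.64, and on both of them the arrays overlapped. Dct, on the probe that was measured in leukemia, differed by 0.58 (SE 0.65, adjusted p = 0.974), above 0 on 3 of 3 slides. Sox10 differed by -0.30, Mc1r by -0.24 and Tyr by 0.28, and the arrays of these members and of Pmel overlapped. Pmel was well above background on 2 of 4 M0-p20 and 1 of 3 J365-p20 arrays, and no size is given for it. The median of those tested was 0.02 against -0.02 over all features.

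The change from parental to dormant cells was compared between the models, as B16-D minus B16-M less J365-p20 minus M0-p20. Of the 5 members tested, 0 were called by limma, where 1.36% of features were called. An unadjusted limma p below 0.05 was found for 1 member, Mitf, and for 1638 of 20817 features. Mitf differed between the models by -0.97 (SE 0.38, adjusted p = 0.436) and Tyr by -0.58 (SE 0.27, adjusted p = 0.640). For Mc1r the difference was 0.52 and for Sox10 0.27. No size is given for Pmel, which was at background on part of the leukemia arrays, nor a median, which would be its value.

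The members varied together to different degrees over the 16 melanoma arrays, which share 5 lines and 3 slides. Pearson's r, given as a description, was 0.88 between Tyr and Pmel, 0.75 between Mitf and Mc1r, 0.69 between Dct and Slc45a2 and -0.52 between Sox10 and Pmel. Among 11867 features with a symbol and well above background on these arrays, those most like Tyr were Bglap2 (0.91), Fundc1 (0.91) and Igsf11 (0.90). Those most like Pmel were Insig2 (0.94), Fundc1 (0.94) and Cnpy2 (0.93). Mitf was nearest to Slc3a2 (0.93), Dnaja3 (0.93) and Wdfy1 (0.92), and Sox10 to Phc3 (0.84), 2410141K09Rik (0.82) and Gm14322 (0.80). Mc1r was nearest to Smim26 (0.92), Adcy7 (0.90) and Blcap (0.88). Tyrp1 was nearest to Medag (0.88), Rpl35 (0.86) and Agap3 (0.79), and Dct to Gemin4, Stk39 and Fam177a2 (each 0.91). Mlana was nearest to Tmem222 (0.86), AU022252 (0.86) and Cd2bp2 (0.85). Slc45a2 was nearest to Gjb1 (0.91), Tspo2 (0.90) and Exosc9 (0.88), and Oca2 to Mindy1 (0.93), Slc50a1 (0.91) and Slc24a4 (0.91). No member was among these.

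Genes around the members were taken from lists. The first held 23 regulators of MITF and pigment cell signals, 22 of them on the array, of which 17 were tested in the melanoma lines. The shares of all features called, given with the members above, apply to the counts of every list. They were 3.64% in B16-D, 5.59% in B16-D-733, 5.06% in B16-D-735 and 3.71% in B16-D-739 against B16-M, and 8.04% in B16-D-735 against B16-D. They were 10.9% in B16-D-735 against the mean of B16-D-733 and B16-D-739, 1.08% in J365-p20 against M0-p20 and 56.2% in B16-M against M0-p20. Features at an unadjusted limma p below 0.05 numbered 4038 in B16-D, 4251 in B16-D-733 and 3971 in B16-D-735 against B16-M, of 24316. They numbered 1061 in B16-D-733 and 1240 in B16-D-739 against B16-D, 1597 of 23036 in J365-p20 and 1638 of 20817 between the models. Higher and lower calls numbered 0 and 1 in B16-D, 3 and 2 in B16-D-733, and 1 and 0 in B16-D-739 against B16-M. In B16-D-735 against B16-M 0 were called by limma (3 at an unadjusted p below 0.05), whereas 4 rose and 3 fell against the mean of B16-D-733 and B16-D-739. Against B16-D, 3 rose and 2 fell in B16-D-735, with 0 called in B16-D-733 (1 unadjusted) and B16-D-739 (3 unadjusted). Medians stood at -0.16, -0.05, 0.05 and -0.01 for B16-D, B16-D-733, B16-D-739 and B16-D-735 against B16-M, beside -0.04, 0.03, 0.00 and -0.01 over all features. In J365-p20 against M0-p20, 0 of 9 were called by limma (1 unadjusted), and between the models 0 of 7 (2 unadjusted). The medians were 0.11 in B16-D-735 against B16-D (0.04 over all features), 0.00 against the mean of the other second-generation lines (-0.02) and -0.09 in J365-p20 (-0.02). B16-M exceeded M0-p20 in 13 of 18 and was lower in 1, with Met at least 1016-fold, Pax3 at least 484-fold and Tbx2 at least 183-fold higher. Tfap2a was also higher, with 1 of 4 M0-p20 arrays well above background.

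Kitl, which encodes the ligand of the KIT receptor, differed between the second-generation lines. It read -2.62, -2.80 and -2.97 in B16-D-735, above -4.18, -3.80, -4.50 and -3.71 in B16-D-733 and above -3.71, -4.06 and -3.96 in B16-D-739. The difference from the mean of these lines was 1.18 (SE 0.17, limma adjusted p = 0.000564), and that from B16-D was 1.06 (adjusted p = 0.00504). Snai2, which encodes the neural crest transcription factor SLUG, rose by 0.89 in B16-D-735 against that mean (adjusted p = 0.00691). Lef1, a mediator of Wnt signalling to Mitf, fell by 1.62 in the same contrast (adjusted p = 0.00248), where 1 of 3 B16-D-735 arrays was well above background, and rose by 1.48 in B16-D-733 against B16-M (adjusted p = 0.0128), where 1 of 3 B16-M arrays was well above background. The Lef1 call in B16-D-733 was lost with normexp, with only the 2 lines compared and with the title date as a block (1.11, adjusted p = 0.154). Against the mean of the other lines, Kitl, Snai2 and Lef1 kept these signs on 3 of 3 slides, as Lef1 did in B16-D-733, and Kitl kept its sign against B16-D on the 2 slides with both lines.

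Several named calls on this list were lost when 1 array was left out. Tbx2 in B16-D against B16-M (-0.39, adjusted p = 0.0452) was lost without any B16-M array or without B16-D replicate 1 or 3 (adjusted p 0.0989 to 0.150). In B16-D-733 against B16-M, Kit (0.93) was lost without any B16-M array or without B16-D-733 replicate 1, 2 or 3 (0.0515 to 0.144) and with the replicate number as a block (0.0506), and Kitl (-0.72) without any B16-M array or without B16-D-733 replicate 0 or 2 (0.0826 to 0.145). Tfap2a there (0.48) was lost without B16-M replicate 0 or 1 or any B16-D-733 array (0.0735 to 0.148). Lef1 in B16-D-739 against B16-M (1.58, adjusted p = 0.0166, with the same B16-M arrays) was lost without any B16-D-739 array (0.0563 to 0.0655). In B16-D-735 against B16-D, Met (0.97) was lost without B16-D replicate 1 or 3 (0.0520 to 0.0612), Kit (-0.93) without B16-D replicate 1 or 3 or B16-D-735 replicate 2 (0.0841 to 0.158), and Lef1 (-1.25, well above background on 1 of 3 B16-D-735 and 2 of 3 B16-D arrays) without B16-D replicate 1 or 3 or any B16-D-735 array (0.0812 to 0.122) and with slide as a block (0.0578). Kit in B16-D-735 against the mean (-0.90) was lost without B16-D-735 replicate 2 (0.0949).

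The second list held 32 genes of melanosome formation, ion balance and transport, all tested in the melanoma lines. Calls higher and lower numbered 1 and 1 in B16-D, 1 and 3 in B16-D-733 and 0 and 1 in B16-D-739 against B16-M, with medians of -0.04, -0.08 and -0.10. In B16-D-735 against B16-M 0 were called by limma (3 unadjusted, median 0.08), but 6 of 32 rose and 0 fell against the mean of B16-D-733 and B16-D-739, where 10.9% of all features were called and the median was 0.23 against -0.02 over all features. Against B16-D, 2 rose and 1 fell in B16-D-735, and 0 were called in B16-D-733 (1 unadjusted) and in B16-D-739 (2 unadjusted). In J365-p20 against M0-p20, 0 rose and 1 of 28 fell, and between the models 1 was higher and 1 lower of 28. The list's median was 0.09 in B16-D-735 against B16-D and 0.11 in J365-p20 against M0-p20. B16-M exceeded M0-p20 in 18 and was lower in 5, with Gpnmb (at least 3707-fold), Gpr143 (at least 503-fold), Mlph (at least 211-fold) and Lyst (at least 24.2-fold) among those higher.

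Rab32, a small GTPase that delivers tyrosinase and TYRP1 to melanosomes, was the gene of this list called most often. It read 3.30, 3.35 and 3.34 in B16-M, 2.97, 2.43 and 2.68 in B16-D, and 2.39, 2.81, 2.75 and 2.65 in B16-D-733. It read 3.30, 3.23 and 3.22 in B16-D-735, and 2.48, 2.57 and 2.44 in B16-D-739. All arrays of B16-D, B16-D-733 and B16-D-739 lay below all arrays of B16-M and B16-D-735, and the highest B16-D-735 array fell within the B16-M arrays. Rab32 fell by 0.68 in B16-D-733 (SE 0.13, limma adjusted p = 0.00674) and by 0.83 in B16-D-739 (SE 0.14, adjusted p = 0.00315) against B16-M, and below 0 on 3 of 3 slides in each. With the title date as a block it was -0.67 in B16-D-733, where the call was lost (adjusted p = 0.0502), and -0.83 in B16-D-739 (adjusted p = 0.00417). It was 0.67 higher in B16-D-735 than in the mean of those lines (SE 0.12, adjusted p = 0.0023). In B16-D it differed from B16-M by -0.64 (adjusted p = 0.0221), a call lost without B16-M replicate 1 or 2 or B16-D replicate 1 or 3 (0.0582 to 0.0910). The call of 0.56 in B16-D-735 against B16-D was lost without B16-D replicate 1 or 3 or any B16-D-735 array (0.0600 to 0.108). Its change from parental to dormant cells was 1.98 lower in melanoma than in leukemia (-1.98, SE 0.31, adjusted p = 0.00102), with -1.03, -0.10, -0.04 and -0.23 in M0-p20 and 0.50, 1.28 and 1.22 in J365-p20.

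The remaining named genes of the melanosome list were Bloc1s1, which rose by 0.61 in B16-D-735 against the mean of B16-D-733 and B16-D-739 (limma adjusted p = 0.00627), and several whose call was lost when 1 array was left out. In that contrast Gpr143 (0.75) was lost without B16-D-735 replicate 0 (adjusted p 0.101) and Mfsd12, which was well above background on 1 of the 7 arrays of the other lines and is given no size, without B16-D-735 replicate 1 or 2 (0.0665 to 0.0806). In B16-D-735 against B16-D, Mfsd12 (at least 1.62-fold) was lost without B16-D replicate 1 or 3 or B16-D-735 replicate 1 or 2 (0.0614 to 0.0874), and Bloc1s5 (-0.56) without B16-D-735 replicate 2 (0.0779). Ap3s1 in B16-D against B16-M (0.42) was lost without B16-M replicate 0 or 1 or B16-D replicate 0 or 1 (0.0598 to 0.129). In B16-D-733 against B16-M, Lyst (-0.67) was lost without B16-M replicate 1 or 2 or B16-D-733 replicate 0, 1 or 3 (0.111 to 0.184), Ap3d1 (-0.52) without any B16-M array or B16-D-733 replicate 0, 1 or 2 (0.0506 to 0.119), and Bloc1s2 (0.32) without any array of either line (0.0585 to 0.182). With the replicate number as a block, the adjusted p in that comparison was 0.0655 for Ap3d1 and 0.0595 for Bloc1s2. Rab38 was the gene called lower in J365-p20, at least 50.5-fold below M0-p20 (limma adjusted p = 9.66e-06). The J365-p20 arrays were at background, so that Rab38 passed the filter of the leukemia fit through M0-p20 alone and had to differ. It was the higher one between the models, where no size is given for the same reason.

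The third list held 11 other described targets of MITF, 9 of them tested in the melanoma lines. Against B16-M, 0 were called by limma in B16-D (3 unadjusted, median 0.14), 1 rose and 2 fell in B16-D-733 (median -0.03), 2 rose and 0 fell in B16-D-735 (median 0.41), and 2 rose and 2 fell in B16-D-739 (median 0.22). Against B16-D, 1 rose in B16-D-733, 2 in B16-D-735 and 1 in B16-D-739, with 0 lower in each. In B16-D-735 against the mean of the other second-generation lines 3 rose and 1 fell, in J365-p20 against M0-p20 1 of 8 rose and 0 fell, and between the models 0 of 6 were called by limma (3 unadjusted). In B16-D-735 the median of these targets was 0.52 against B16-D and 0.11 against that mean, and it was 0.06 in J365-p20. B16-M was higher than M0-p20 in 5 of 10 and lower in 5, among them Bcl2 (-3.52) and Cdkn2a (at least 10.5-fold lower).

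Trpm1 encodes a cation channel of melanocytes. It read 4.57, 3.74 and 3.51 in B16-M, 3.43, 0.88 and 1.34 in B16-D (1.06 on replicate 2), and 0.75, 0.77, 0.36 and 0.47 in B16-D-733. It read 3.84, 2.48 and 2.19 in B16-D-735, and 1.55, 0.20 and 0.03 in B16-D-739. B16-D-733 and B16-D-739 lay wholly below B16-M and B16-D-735, and of the B16-D arrays 2 fell within the range of B16-D-739 and 1 within that of B16-D-735. Trpm1 fell by 3.36 in B16-D-733 (SE 0.58, limma adjusted p = 0.00377) and by 3.35 in B16-D-739 (SE 0.62, adjusted p = 0.00754) against B16-M, within slides by -3.96 to -2.99 and -3.55 to -3.02. The call in B16-D-733 was lost with the title date as a block (-2.45, adjusted p = 0.0673). The 2.25 by which B16-D-735 exceeded those lines (SE 0.53, adjusted p = 0.0155) was lost without B16-D-735 replicate 0 (0.0932). Another Trpm1 probe that was well above background on all of these arrays differed by 0.03 in this contrast, and by -0.65 in B16-D-733 and -1.18 in B16-D-739 against B16-M, whereas the other 4 probes, 2 of them well above background on part of the arrays, differed by 1.87 to 2.23, -3.39 to -2.63 and -3.16 to -2.97. In these contrasts the probes differed in size and not in direction. Against leukemia the probes of Trpm1 disagreed in direction, and no fold is given.

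Ppargc1a encodes PGC-1α, a coactivator of mitochondrial genes. It read 0.72, -0.31 and -0.46 in B16-M, 1.49, 0.32 and -0.02 in B16-D, and 3.52, 3.19 and 3.33 in B16-D-735. The B16-D-735 arrays lay above those of every other line, B16-D-733 having 1.77, 0.73, 0.78 and 0.89 and B16-D-739 having 1.47, 0.50 and 0.71. Ppargc1a rose in B16-D-735 by 3.37 against B16-M (SE 0.43, limma adjusted p = 0.000315), by 2.75 against B16-D (adjusted p = 0.00139) and by 2.38 against the mean of the other second-generation lines (adjusted p = 0.000935). Its second probe differed by 3.47 from B16-M. Ppargc1a was at least 25.1-fold higher in B16-M than in M0-p20.

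Ctsk, encoding the protease cathepsin K, read -3.57, -3.94 and -3.71 in B16-M and -0.81, -1.07 and -0.96 in B16-D-739. It rose in B16-D-739 by 2.79 against B16-M (limma adjusted p = 1.68e-05) and by 2.30 against B16-D (adjusted p = 0.000714), with no overlap. Acp5, encoding a lysosomal acid phosphatase, rose in B16-D-733 at least 3.05-fold against B16-M (adjusted p = 0.00062), where no array was well above background, and by 1.69 against B16-D (adjusted p = 0.00613), where 2 of 3 arrays were. Acp5 passed the filter through lines other than B16-M alone, so that its calls against B16-M are a description. Cdk2, a cell cycle kinase gene, rose in B16-D-735 by 0.77 against B16-D (adjusted p = 0.00948) and by 0.93 against the mean of the other second-generation lines (adjusted p = 0.000607). The Cdk2 calls of -0.61 in B16-D-733 and -0.70 in B16-D-739 against B16-M were lost without any B16-M array, without B16-D-733 replicate 0, 1 or 3 (0.0666 to 0.0994) and without any B16-D-739 array (0.0600 to 0.0869). Ctsk in B16-D-735 against B16-M (1.22) was lost without B16-M replicate 1 or B16-D-735 replicate 0 or 1 (0.0508 to 0.0580). Acp5 in B16-D-739 against B16-M (at least 2.22-fold) was lost without B16-M replicate 0 or B16-D-739 replicate 1 or 2 (0.0513 to 0.0597). Cdkn2a in J365-p20 against M0-p20 (2.32, adjusted p = 0.00856) was lost without J365-p20 replicate 0 or 1 (0.0507 to 0.0613).

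The fourth list held 22 genes described in dedifferentiated melanoma cells, 15 of them tested in the melanoma lines. Calls higher and lower against B16-M numbered 2 and 0 in B16-D (median 0.29), 4 and 0 in B16-D-733 (0.31), 2 and 1 in B16-D-735 (-0.09) and 3 and 0 in B16-D-739 (0.15). Against B16-D they numbered 0 and 3 in B16-D-735, with 0 called by limma in B16-D-733 (1 unadjusted) and B16-D-739 (2 unadjusted). B16-D-735 against the mean of the other second-generation lines gave 0 and 2 (median -0.33), J365-p20 against M0-p20 0 and 1 of 11, and the difference between the models 1 and 0 of 8 (Thbs1, with the J365-p20 arrays at background). Medians of this list were -0.11 in B16-D-735 against B16-D and -0.32 in J365-p20. B16-M was higher than M0-p20 in 10 of 18 and lower in 4, with Cdh2 (7.81, well above background on 3 of 4 M0-p20 arrays), Nes (7.30) and Fn1 (at least 37.5-fold) among those higher.

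Pdgfrb, encoding a receptor for platelet-derived growth factor, was not well above background on any B16-M array. It read -3.16, -3.45 and -4.32 in B16-D, -2.06, -3.01, -2.63 and -3.17 in B16-D-733, -3.63, -3.29 and -3.32 in B16-D-735, and -3.38, -2.87 and -3.0 in B16-D-739, well above background on each. In that order of lines, Pdgfrb exceeded B16-M by no less than 2.39-fold, 4.54-fold, 2.81-fold and 3.53-fold (limma adjusted p = 4.69e-05, 9.44e-07, 1.1e-05 and 6.15e-06). Being at background in B16-M, Pdgfrb passed the filter through the other lines alone and had to differ. Its calls, which are among the higher calls of this list counted above, are therefore a description. Aqp1, a water channel gene, divided the lines in another way. It read -4.69, -4.38 and -4.82 in B16-M and -3.66, -5.02 and -4.65 in B16-D-735, against -2.75, -2.30 and -2.08 in B16-D, -1.64, -2.06, -2.54 and -2.41 in B16-D-733 and -1.50, -2.37 and -2.77 in B16-D-739. Aqp1 rose by 2.25 in B16-D, 2.47 in B16-D-733 and 2.42 in B16-D-739 against B16-M (adjusted p = 0.00488, 0.000862 and 0.00217), where 1 of 3 B16-M arrays was well above background, and B16-D-735, with 2 of 3 arrays well above background, was lower than B16-D (-2.06) and than the mean of the others (-2.25). Thbs1, encoding thrombospondin 1, fell in B16-D-735 by 1.30 against B16-M, 1.22 against B16-D and 1.60 against that mean.

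Ngfr, a neural crest receptor gene, rose at least 1.78-fold in B16-D-733 against B16-M (limma adjusted p = 0.00632), and Vim, the intermediate filament vimentin, by 0.51 in B16-D-735 (adjusted p = 0.0106). Ngfr was not well above background on any B16-M array. It passed the filter through the other lines alone, so that its calls against B16-M are a description. Other named calls were lost when 1 array was left out. Ngfr in B16-D-739 (at least 1.29-fold) was lost without any array of either line (0.0567 to 0.179), and Vim in B16-D-733 (0.37) without any B16-M array or B16-D-733 replicate 0, 1 or 2 (0.0671 to 0.126). Ccn1 in B16-D-735 against B16-D (-1.33) was lost without B16-D replicate 0 or 1 or B16-D-735 replicate 1 or 2 (0.0768 to 0.211) and with slide as a block (0.0608). Thbs1 in J365-p20 against M0-p20 (at least 2.73-fold lower) was lost without any J365-p20 array (0.102 to 0.151) and with slide as a block (0.0533). With the J365-p20 arrays at background, Thbs1 passed the filter of the leukemia fit through M0-p20 alone.

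Markers of other cell types were measured in the same arrays, as the sum over a list of signal relative to the array's 75th percentile, taken on each array and then averaged over a line. The gene whose probe gave the strongest signal is named for each list, which does not rank transcripts, since probes differ in their response. Of 6 macrophage and leukocyte markers, all 6 were well above background on every leukemia array, with sums of 21.1 to 29.9 in M0-p20 and 22.8 to 26.0 in J365-p20. In the melanoma lines Ptprc and Adgre1 were at background on every array used, and Itgam gave the strongest signal in all lines. The other Itgam probe read -4.09, -3.84 and -5.49 in B16-M, against 2.10, 2.82 and 1.99 on the probe used. The sum was 5.53 to 10.5 in B16-M and averaged 6.69 in B16-D, 7.54 in B16-D-733, 7.48 in B16-D-735 and 7.34 in B16-D-739. Against M0-p20, B16-M was lower in 5 of 6 (Ptprc at least 189-fold, Adgre1 at least 38.6-fold, Spi1 by -4.18 with 1 of 3 B16-M arrays well above background, Cd68 by -1.91, Itgam by -1.45), and 0 of this list were called by limma in the other comparisons.

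Of 6 fibroblast markers, 3 were well above background on all B16-D-735 arrays (Col1a1, Col1a2 and Dcn) and 3 were at background there (Col3a1, Pdgfra and Lum). The sum was 1.51, 1.09 and 1.33 in B16-D-735 against 0.756, 0.610 and 0.687 in B16-M, 0.649, 0.602 and 0.514 in B16-D, 0.463, 0.604, 0.765 and 0.557 in B16-D-733, and 0.284, 0.309 and 0.343 in B16-D-739, with the strongest signal from Col1a2 in each. Among the melanoma lines Dcn was well above background in B16-D-735 alone, so that it passed the filter through that line and had to differ. It was at least 7.80-fold higher there than in B16-M and at least 7.01-fold higher than in B16-D. Against the mean of the other second-generation lines 2 were called higher, Col1a2 by 1.57 and Dcn, for which no size is given. Col1a2 in B16-D-739 against B16-M (-1.32) was lost without B16-M replicate 0 or 2 or any B16-D-739 array (limma adjusted p 0.0585 to 0.0834). B16-D-735 was also the line in which Rab32 and Trpm1 were called higher than in B16-D-733 and B16-D-739 and in which Pmel (0.28) and Tyr (0.33) were not, and the part of these markers in those values was not tested. In the leukemia lines the sums averaged 0.100 in M0-p20 and 0.0840 in J365-p20, and against M0-p20 B16-M was higher in 3 and lower in 0 (Col1a1, Col1a2 and Pdgfra).

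Of 4 neuron markers, Tubb3 and Snap25 were well above background in every line, and Syt1 was at background in all and Rbfox3 in all but 1 M0-p20 array. For Snap25 this holds for its brightest probe, and its other probe was well above background on 0 of 7 arrays of B16-M and M0-p20. The sum averaged 7.63 in B16-M, 7.59 in B16-D, 8.50 in B16-D-733, 13.9 in B16-D-735 and 8.65 in B16-D-739, with the strongest signal from Tubb3, and 9.85 in M0-p20 and 7.30 in J365-p20, with the strongest from Snap25. Tubb3 rose in B16-D-735 by 1.30 against B16-M, 1.14 against B16-D and 0.99 against the mean of the other second-generation lines, and B16-M against M0-p20 gave 1 higher (Tubb3) and 1 lower (Snap25). Of 4 astrocyte markers, Slc1a3 was at background throughout and Aldh1l1 gave the strongest signal, with sums averaging 10.4 in B16-M, 5.04 in B16-D, 4.85 in B16-D-733, 9.91 in B16-D-735, 6.81 in B16-D-739, 0.154 in M0-p20 and 0.0990 in J365-p20. Aldh1l1 in B16-D-733 against B16-M (-1.16) was lost without any B16-M array or B16-D-733 replicate 1, 2 or 3 (limma adjusted p 0.0535 to 0.113). B16-M exceeded M0-p20 in 3 of these (Aldh1l1 by 6.68, Gfap at least 1.97-fold), of which Aqp4 (1.11, well above background on 1 of 4 M0-p20 arrays) was lost without B16-M replicate 0 or 1 or M0-p20 replicate 1 or 2 (0.0610 to 0.122). The neuron sum was the highest of the melanoma lines in B16-D-735 and the astrocyte sum there was near that of B16-M, and the part of these markers in the values of Tyr and Pmel was not tested.

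Of the oligodendrocyte and Schwann cell markers, Mbp and Mog are given here, which do not stand for the list. Mog differed by -0.20 in B16-D-733 against B16-M (limma adjusted p = 0.943) and by 0.32 against B16-D (adjusted p = 0.923). Mbp differed by -1.55 in B16-D-739 against B16-M (adjusted p = 0.0505). Mbp rose by 2.14 in B16-D-733 against B16-M (adjusted p = 0.00377; 1.79 and 0.0599 with the title date as a block), and its call of 2.12 against B16-D was lost without B16-D replicate 0 or 3 or any B16-D-733 array (limma adjusted p 0.0538 to 0.101). Between the parental lines Mbp, well above background on 1 of 4 M0-p20 arrays, differed by 5.12, which became -5.76, -6.07 and -6.13 without B16-M replicate 0, 1 and 2 in turn, when another probe of Mbp was the brightest. The 3 probes of Mbp differed by 5.12, 3.13 and -5.99 in this comparison. Of 4 endothelial markers, Cdh5 and Tie1 were at background on all arrays used and Pecam1 gave the strongest signal, with sums averaging 0.0940, 0.0843, 0.0882, 0.0780 and 0.0817 in B16-M, B16-D, B16-D-733, B16-D-735 and B16-D-739, and ranging over arrays from 0.348 to 0.457 in M0-p20 and from 0.448 to 0.478 in J365-p20, and the 1 call was Pecam1, lower in B16-M than in M0-p20 (-2.53). Of 5 keratinocyte and epithelial markers, Epcam and Krt8 were at background on all arrays used, the sums averaged 0.104 to 0.145 over the 7 lines with the strongest signal from Krt5 or Krt14, and 0 were called by limma in any comparison.

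With B16-D replicate 2 added to the fits, some of the calls named above on the lists were lost, at limma adjusted p from 0.0560 to 0.190. They were Ap3s1 in B16-D, Ap3d1, Bloc1s2, Cdk2, Lyst, Tfap2a and Vim in B16-D-733, and Acp5, Cdk2, Lef1 and Ngfr in B16-D-739, each against B16-M. The others were Acp5 in B16-D-733, Ccn1 and Mfsd12 in B16-D-735 against B16-D, Mfsd12 in B16-D-735 against the mean of the other second-generation lines, and Aqp4 between the parental lines. The named calls of Trpm1, Rab32, Ppargc1a, Ctsk, Pdgfrb and Aqp1 kept their side of the threshold.

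Of 110 calls of list genes, 33 were lost with some 1 array left out, and others that held there were lost in other alternatives. With only the 2 lines compared, 29 were lost (limma adjusted p 0.0555 to 0.441), among them Tubb3 and Vim in B16-D-735 against B16-M, Aqp1, Cdk2, Kitl, Thbs1 and Tubb3 in B16-D-735 against B16-D, and Ctsk in B16-D-739 against B16-D. With normexp 20 were lost (0.0516 to 0.549), among them Ngfr in B16-D-733 against B16-M, Acp5 in B16-D-733 against B16-D, Col1a1 between the parental lines and Thbs1 between the models. With the title date as a block 21 were lost (0.0502 to 0.289), among them Cdk2 in B16-D-735 against B16-D.

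Promoter sequence was looked up in RefSeq (GRCm38.p6) in windows of 300 bases around a transcription start. Windows were found for 6 of the 10 members, Mitf (3 windows), Mc1r, Tyr, Tyrp1, Dct and Oca2, and Pmel, Mlana, Slc45a2 and Sox10 are named only. Both strands were searched for the E-boxes CATGTG and CACGTG and for the M-box core TCATGTG, which contains the first of these. Of the 6 members, 5 held CATGTG, 0 held CACGTG and 4 held TCATGTG in any of their 8 windows. Of the 32851 windows of this length in the table, 14.2%, 7.15% and 3.77% held them. The first are counts of genes and the second shares of windows, so that they are not like for like. Mitf had none in its 3 windows, and Oca2 had CATGTG without the core. A match describes these letters only.

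The windows of the 3 melanin-synthesis enzymes and of the receptor Mc1r are shown because they hold the core motif, in capitals on either strand, with a further CATGTG in capitals in Mc1r. Dct holds the core at 2 places and the others at 1. They lie at chr7:87493463-87493762 on the minus strand (Tyr), chr4:80833963-80834262 on the plus strand (Tyrp1), chr14:118052197-118052496 on the minus strand (Dct) and chr8:123406832-123407131 on the plus strand (Mc1r), each written 5′ to 3′ along the gene.
Tyr: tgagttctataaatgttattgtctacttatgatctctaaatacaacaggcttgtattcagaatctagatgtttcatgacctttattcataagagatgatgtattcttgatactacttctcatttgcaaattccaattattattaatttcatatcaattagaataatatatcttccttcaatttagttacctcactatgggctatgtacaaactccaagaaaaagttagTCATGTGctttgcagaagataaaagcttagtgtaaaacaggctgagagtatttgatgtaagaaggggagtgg
Tyrp1: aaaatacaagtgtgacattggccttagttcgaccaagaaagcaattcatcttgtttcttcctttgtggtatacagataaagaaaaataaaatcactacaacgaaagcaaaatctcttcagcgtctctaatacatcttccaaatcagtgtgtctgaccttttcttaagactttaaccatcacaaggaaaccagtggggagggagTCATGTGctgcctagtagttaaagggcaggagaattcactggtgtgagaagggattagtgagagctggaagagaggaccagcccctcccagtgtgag
Dct: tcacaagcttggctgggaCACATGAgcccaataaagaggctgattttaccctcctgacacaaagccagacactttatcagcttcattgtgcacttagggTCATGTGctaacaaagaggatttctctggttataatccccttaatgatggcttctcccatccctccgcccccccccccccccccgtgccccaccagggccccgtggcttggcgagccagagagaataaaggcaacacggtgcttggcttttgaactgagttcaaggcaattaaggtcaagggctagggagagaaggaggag
Mc1r: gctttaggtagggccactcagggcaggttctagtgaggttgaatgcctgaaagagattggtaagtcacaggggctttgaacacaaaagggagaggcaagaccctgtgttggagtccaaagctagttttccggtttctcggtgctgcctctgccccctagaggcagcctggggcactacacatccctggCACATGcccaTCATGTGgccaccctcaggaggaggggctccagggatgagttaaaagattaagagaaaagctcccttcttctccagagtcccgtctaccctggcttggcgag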

How the data were processed

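RNA of the 24 arrays was labelled with Cy3 and scanned on Agilent arrays. The deposited intensity values are the processed signals of Agilent Feature Extraction 10.7.3.1, background-subtracted and spatially detrended per the file headers, and the authors' value table holds the same numbers on every array. Of 62976 spots on an array, 3671 controls were left out, as were 2468 outlier spots over all arrays (117 probe values), and no spot was saturated. Spots of a probe were averaged, and log2 signal minus the log2 of each array's 75th percentile was used. The brightest probe stood for each gene, and 7899 symbols had several probes. The members and lists were chosen with earlier results of these data known.

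Fits used limma 3.58.1 in R 4.3.3 (lmFit and eBayes): 16 melanoma arrays, 7 leukemia arrays, or all 23 for comparisons across models, with 24316, 23036 and 26757 features tested after the filter, and 20817 for the difference between the models. Adjusted p-values are Benjamini-Hochberg values over all features tested. Tables and figures were made with Python 3.11.15, numpy 2.4.6, pandas 2.3.3 and matplotlib 3.10.9, and scripts were tested on simulated data.

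Named genes were the 10 members. From each list without cell type markers they were at most 4 genes per comparison, called, with arrays that do not overlap and the largest absolute difference. From marker lists they were the gene with the strongest signal and each gene called, and for likeness the 3 features with the highest Pearson r over the 16 melanoma arrays. The lists were MITF regulators and pigment cell signals, melanosome genes, other MITF targets, dedifferentiated melanoma genes, and markers of fibroblasts, leukocytes, endothelium, neurons, astrocytes, oligodendrocytes and Schwann cells, and epithelium. Some genes of these lists, and the summed level of the oligodendrocyte and Schwann cell list, are not reported here.

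Alternatives were normexp, quantile normalization, a stricter filter and none, slide as a block, the mean of all probes, the replicate number as a block, each array left out, B16-D replicate 2 added, only the 2 lines compared, and the presence of a date in the title as a block. Normexp (offset 50) used the median spot signals with the median background, since mean spot signals were not used here. Replicate numbers come from the titles: replicate 0 and B16-D-735 replicate 2 were read from a prefix, as was B16-D-733 replicate 3, whose title otherwise repeats the number 1. The pairing and the block rest on these readings. Arrays of the same number deviated together in B16-D-733 and B16-M (r = 0.58, 0.35 and 0.82) and in B16-D-739 and B16-M (0.74, 0.58 and 0.83), so that the numbers were taken to pair these arrays, and in no other comparison with at least 3 pairs was every r above 0.1. In B16-D-739 and B16-M, arrays of the same number also share a slide, so that number and slide cannot be told apart there. B16-D-735 and B16-D share 2 numbers (r = 0.26 and 0.67), too few to be taken as paired.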

Additional observations from a re-analysis of the deposited data

Results flagged for a closer look

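Slc45a2 on M0-p20 replicate 1 read -6.77, apart from -6.94, -6.95 and -6.94 on the other M0-p20 arrays. The gap to the nearest of them was large for the range of the 4 arrays by Dixon's criterion. No M0-p20 array was well above background for Slc45a2, so the value lies within the background signal. By chance about 1 in 20 groups tested in this way stands out.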

How the results depend on the processing

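Of 185 alternatives to the 11 counts of members called, 178 gave the same count and 7 moved it. With the mean of all probes, 1 member was called in B16-D-733 and 1 in B16-D-739 against B16-M and 1 in B16-D-735 against the mean of the other second-generation lines (Tyr in each). With quantile normalization, 1 was called in B16-D-739 against B16-M (Tyr) and 1 in that mean contrast (Pmel). Leaving out 1 array gave 0 to 1 members in B16-D-735 against B16-D, with 1 (Pmel, 0.40, limma adjusted p = 0.0489) without B16-D replicate 0. With the filter on every array, 4 members were called in B16-M against M0-p20, since no more passed it. The causes of the other changes were not tested. Of 1670 alternatives to the values of single members, 1664 kept their side of the threshold and 6 passed it. Of 1773 for the other named genes, 1501 kept it, 269 lost the call and 3 reversed: Mbp in B16-M against M0-p20 was 5.12 and ranged from -6.13 to 5.44 with 1 array left out (-5.76, -6.07 and -6.13 without B16-M replicate 0, 1 and 2), since another probe was then the brightest. Of the 110 calls of the other named genes, 29 were lost with only the 2 lines compared, 21 with no filter, 21 with the title date as a block, 20 with normexp, 16 with B16-D replicate 2, 9 with the replicate number as a block, 7 with quantile normalization, 7 with the mean of all probes and 3 with slide as a block (Ccn1 and Lef1 in B16-D-735 against B16-D and Thbs1 in J365-p20). The title date as a block, and B16-D replicate 2 in the fit of all arrays, were chosen after seeing the data.

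Replicate numbers as a block changed no member call: Mitf in J365-p20 against M0-p20 was 1.06 (limma adjusted p = 0.327), and Tyr in B16-D-739 against B16-M -0.55 (0.110). In comparisons not taken as paired (B16-D-735 and B16-D share 2 numbers, too few to decide), the block ended the calls of Rab32 (0.0573) and Tbx2 (0.0859) in B16-D against B16-M, Kit (0.0501) and Rab32 (0.0611) in B16-D-735 against B16-D, and Cdkn2a (0.0584) and Thbs1 (0.0694) in J365-p20 against M0-p20. Features called in J365-p20 against M0-p20 numbered 120 with the block and 249 without it.

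Counts of features called moved by over 1.5 times as follows. B16-D against B16-M had 885, and 489 with no filter, 86 with only these lines, 412 and 463 without B16-M replicates 1 and 2, and 487 without B16-D replicate 1. B16-D-733 against B16-M had 1360, and 895 with no filter, 2205 with slide as a block, 743 and 825 without B16-M replicates 1 and 2, and 905 without B16-D-733 replicate 1. B16-D-735 against B16-M had 1230, and 2166 with slide as a block, 537 with only these lines, 729 without B16-M replicate 1, and 797 and 794 without B16-D-735 replicates 0 and 1. B16-D-739 against B16-M had 903, and 1495 with slide as a block, 473 with only these lines, 565 and 581 without B16-M replicates 1 and 2, and 561 and 594 without B16-D-739 replicates 0 and 2. B16-D-733 against B16-D had 116, and 71 with normexp, 53 with the filter on every array and 51 with only these lines. B16-D-735 against B16-D had 1956, and 1206 with no filter, 313 with only these lines, 1125 without B16-D replicate 1 and 999 without B16-D-735 replicate 2. B16-D-739 against B16-D had 77, and 41 with the filter on every array, 1 with only these lines, and 42 and 41 without B16-D-739 replicates 1 and 2. B16-D-735 against the mean had 2651, and 4181 with slide as a block and 1506 and 1606 without B16-D-735 replicates 2 and 1. J365-p20 against M0-p20 had 249, and 106 with the filter on every array, 163 without M0-p20 replicate 2, and 130, 118 and 132 without J365-p20 replicates 0, 1 and 3. B16-M against M0-p20 had 15037, and 9109 with the filter on every array. The difference between the models had 284, and 185 with that filter, 534 with no filter and 477 with slide as a block. No scaling moved the median of all features by over 0.1. Signal over background limits the members in leukemia, where 4 had no probe well above background on any array.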
